A study of Mus musculus with 37 samples.

Results

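Small nucleolar RNAs (snoRNAs) were followed through the oocyte-to-embryo transition in mice whose oocytes lack BAP1. They were the genes whose symbol begins with Snord or Snora and a number and that reached 1 FPKM (the fragments counted per kilobase of a gene, corrected for library size) in at least 2 of 26 total RNA libraries. Of 141 genes with such a symbol, 47 met the rule, 23 of the box C/D family (Snord) and 24 of the box H/ACA family (Snora). The other 94 did not, and 19 of those were listed at 0 in every library. The closest genes inside the threshold, by their second-highest library, were Snora3 at 1.03 FPKM, Snord82 at 1.04 FPKM and Snora17 at 1.05 FPKM, and the closest outside were Snord11 at 0.908 FPKM, Snord34 at 0.884 FPKM and Snord1b at 0.857 FPKM. All 47 were among the 15184 of 55401 listed genes that passed the same filter and were tested. A further 1367 gene models annotated as snoRNA carry other symbols, and 104 of those passed the filter.

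The study asked how loss of BAP1, a ubiquitin hydrolase that removes ubiquitin from histone H2A, affects the transcriptome of oocytes and early embryos. Control females carried the floxed allele alone (Bap1flox/flox), and knockout females carried Gdf9-iCre, Bap1flox/flox, in which the oocyte promoter Gdf9 drives the recombinase. Both groups therefore carried the floxed allele, and no group carried Gdf9-iCre without it. Fully grown oocytes (FGO) and MII eggs (MII) came from these females, and late 1-cell (L1C), early 2-cell (E2C) and late 2-cell (L2C) embryos came from their oocytes fertilised with B6 sperm and cultured in KSOM. The knockout embryos are thus maternal knockouts that received a paternal allele from B6 males. Each stage had 2 control and 3 knockout libraries, except E2C with 3 of each. The ages of the animals and the number of oocytes or embryos per library are not given in the labels, nor whether replicates came from separate animals, so p-values measure the spread between these libraries, which may be technical. Bap1 was at 16.3 to 29.9 FPKM in the 11 control libraries and at 3.76 to 11.7 FPKM in the 15 knockout libraries.

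snoRNAs guide the chemical modification of ribosomal RNA and small nuclear RNA. Box C/D snoRNAs carry a C box and a D box near their ends and direct methylation of the ribose by the methyltransferase fibrillarin, whereas box H/ACA snoRNAs fold into hairpins, end in an ACA box and direct pseudouridylation by dyskerin. A few, among them U8 (Snord118), U17 (Snora73a and Snora73b) and U22 (Snord22), act in the cleavage of the ribosomal RNA precursor instead of guiding a modification. Most vertebrate snoRNAs are cut out of introns of host genes, many of which encode ribosomal proteins. Ribosomal RNA synthesis falls silent in the fully grown oocyte and resumes after fertilisation.

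The sequences of the 11 genes on which the results below turn are given 5′ to 3′ as annotated in GENCODE M21 on GRCm38, the assembly also called mm10. Capitals mark the box C letters TGATGA within the first 20 bases and the box D letters CTGA within the last 20, or the letters ACA that stand 3 bases before the 3′ end. Snord21 (chr5:107904555-107904648, plus strand) overlaps an exon of a transcript of the ribosomal protein gene Rpl5. Snord17 (chr2:144265979-144266216, minus strand) lies in an intron of Snx5, and Snord22 (chr19:8725866-8725991, plus strand) overlaps an exon of the non-coding host Snhg1. Snord118 (chr11:69073427-69073561, plus strand) has no host gene on its strand.
Snord21: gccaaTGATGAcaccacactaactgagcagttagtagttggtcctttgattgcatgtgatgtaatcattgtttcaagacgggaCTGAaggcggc
Snord17: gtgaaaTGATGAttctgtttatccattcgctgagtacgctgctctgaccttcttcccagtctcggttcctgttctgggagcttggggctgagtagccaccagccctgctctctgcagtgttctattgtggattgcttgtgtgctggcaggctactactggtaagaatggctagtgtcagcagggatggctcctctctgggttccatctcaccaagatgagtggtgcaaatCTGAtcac
Snord22: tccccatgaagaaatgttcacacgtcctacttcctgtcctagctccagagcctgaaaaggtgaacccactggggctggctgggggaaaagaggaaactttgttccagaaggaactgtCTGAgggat
Snord118: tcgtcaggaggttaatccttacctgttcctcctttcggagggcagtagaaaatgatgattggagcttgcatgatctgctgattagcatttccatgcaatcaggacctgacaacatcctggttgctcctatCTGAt

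The H/ACA genes are shown for the same reason. Snora47 (chr13:95330600-95330737, plus strand) lies in an intron of Zbed3 and Snora23 (chr7:110046364-110046547, plus strand) in an intron of Ipo7. Snora78 (chr17:24719676-24719803, minus strand) lies in an intron of Snhg9 and Snora34 (chr15:98519716-98519853, minus strand) in an intron of Kansl2. Snora52 (chr7:141448803-141448939, plus strand) overlaps an exon of Rplp2. Snora73a (chr4:132352775-132352979, minus strand) and Snora73b (chr4:132352322-132352526, minus strand) lie in introns of Rcc1, and Snora73a also overlaps an exon of Snhg3.
Snora47: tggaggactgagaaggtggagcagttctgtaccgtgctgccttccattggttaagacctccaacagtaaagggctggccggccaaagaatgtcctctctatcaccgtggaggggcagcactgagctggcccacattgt
Snora23: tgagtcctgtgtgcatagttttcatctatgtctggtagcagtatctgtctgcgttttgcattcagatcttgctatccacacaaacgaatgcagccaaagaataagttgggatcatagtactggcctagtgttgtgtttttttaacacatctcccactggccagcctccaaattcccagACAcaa
Snora78: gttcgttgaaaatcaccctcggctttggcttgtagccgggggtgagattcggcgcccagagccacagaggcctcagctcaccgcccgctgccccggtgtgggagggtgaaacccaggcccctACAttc
Snora34: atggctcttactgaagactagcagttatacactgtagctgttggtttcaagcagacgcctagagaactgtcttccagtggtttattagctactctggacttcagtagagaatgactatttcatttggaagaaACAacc
Snora52: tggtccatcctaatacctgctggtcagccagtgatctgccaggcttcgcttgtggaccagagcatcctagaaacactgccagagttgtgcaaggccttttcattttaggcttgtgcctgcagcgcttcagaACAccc
Snora73a: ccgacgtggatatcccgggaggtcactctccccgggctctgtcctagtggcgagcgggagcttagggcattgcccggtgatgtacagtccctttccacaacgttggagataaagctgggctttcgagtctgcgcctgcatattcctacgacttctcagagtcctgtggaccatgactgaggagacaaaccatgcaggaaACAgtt
Snora73b: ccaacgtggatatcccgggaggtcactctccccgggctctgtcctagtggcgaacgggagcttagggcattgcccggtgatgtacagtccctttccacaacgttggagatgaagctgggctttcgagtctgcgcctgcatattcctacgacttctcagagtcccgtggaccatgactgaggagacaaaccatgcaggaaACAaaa

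Snora73a and Snora73b match at 198 of 205 aligned positions (96.6%), so the division of fragments between them is uncertain. The letters TGATGA stood anywhere in 16 of the 23 C/D genes and in 0 of the 24 H/ACA genes on the strand of the gene, and in 0 of either family on the other strand. TGATGA in the first 20 bases with CTGA in the last 20 was found in 14 of the 23 C/D genes, and in 1 of 3711 annotated snRNA, miRNA precursor and miscellaneous RNA transcripts of 60 to 250 bases (0.0269%). CTGA anywhere was found in 23 of 23 C/D genes, but also in 13 of 24 H/ACA genes and in 37.6% of the other transcripts. ACA 3 bases before the end was found in 20 of 24 H/ACA genes, 0 of 23 C/D genes and 2.37% of the other transcripts. On the other strand the same search gave 1 of 23 C/D genes, 0 of 24 H/ACA genes and 2.29%. So 7 of the 23 C/D genes lacked TGATGA and 4 of the 24 H/ACA genes lacked ACA at that place.

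Of the 47 genes, 27 lie in an intron of a host gene on the same strand, 16 overlap an exon of a host transcript and 4 have no such host (Snord118, Snord104, Snora57 and Snora17). There were 40 different hosts. The host was protein-coding for 33 genes, and for 12 it encoded a ribosomal protein. Where several genes spanned a snoRNA, the longest protein-coding one was taken as host, or else the longest. For the 16 genes that overlap a host exon, fragments of the snoRNA and of the host transcript cannot be told apart in these values, and unspliced host RNA can add to any intronic gene. For 11 genes some runs of 50 bases also occur in another annotated gene, up to 38.8% of them in Snora81.

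Most of the 47 genes were low. Only 7 averaged at least 5 FPKM over the 26 libraries and 26 averaged under 1 FPKM, 7 were at 1 FPKM or more in every library, and 36 were listed at 0 in at least 1. The highest means were those of Snora47 (37.3 FPKM), Snora74a (31.4 FPKM), Snord21 (26.5 FPKM), Snord17 (25.3 FPKM), Snord22 (23.4 FPKM), Snord118 (12.5 FPKM), Snora73a (5.07 FPKM) and Snora23 (4.98 FPKM). FPKM is a share of each library, so a change in the amount of a snoRNA per cell and a change in the remaining RNA cannot be told apart. The read depth is unknown, because FPKM does not hold it. The labelled cells were checked with marker genes. All 8 oocyte markers passed the filter (summed level 499 to 4190 FPKM) and 0 of 4 blood markers did (Alas2 and Hbb-bs were at 0 everywhere), while 1 of 8 cumulus and granulosa markers passed, Cyp19a1, and 1 of 5 sperm markers, Prm2.

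The library labelled knockout FGO replicate 1 stood apart in small RNAs. Its summed level of the 47 genes was 296 FPKM, against 84.3 to 95.8 FPKM in the other 4 FGO libraries. The gap was widest for short genes: the 19 of at most 100 nt summed to 119 FPKM there and to 3.94 to 9.82 FPKM in the others, while the 28 longer ones summed to 177 FPKM against 76.7 to 90.5 FPKM. Of the 47 genes, 29 (61.7%) had their highest FGO value in this library, where 27.9% of all genes past the filter did. Other short transcripts were also high there: snRNA models summed to 850 FPKM against 161 to 181 FPKM, and mitochondrial tRNAs to 1855 FPKM against 466.0 to 537 FPKM. Protein-coding genes past the filter summed to 1.02 times the highest of the other FGO libraries. The FGO differences of the genes named for that stage are therefore given with and without this library. Medians and changes of the knockout effect are given with it.

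**Figure D1:**
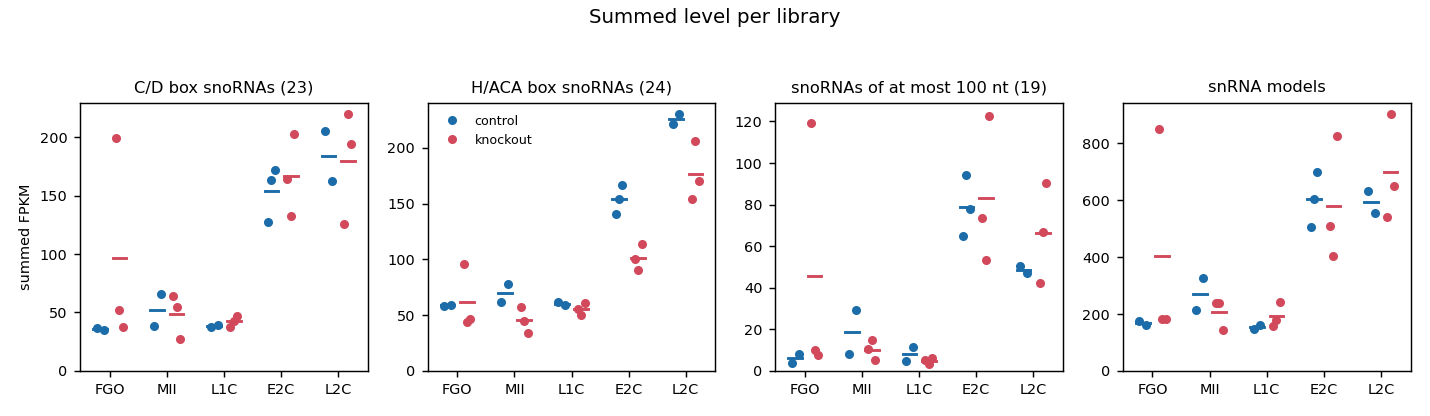
Summed FPKM per library (y axis) by stage (x axis) for 4 classes of small RNA, with 1 point per library and bars at group means, in control (blue) and knockout (red). The sums of both snoRNA families are high in the 2-cell stages, and 1 knockout FGO library is far above the other FGO libraries for the short genes (119 FPKM) and the snRNA models (850 FPKM).

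In control cells snoRNA levels were low from the oocyte to the 1-cell embryo and higher in 2-cell embryos. The 47 genes summed to 94.4 and 94.6 FPKM in control FGO, 100.1 and 144 FPKM in MII eggs, 97.9 and 99.6 FPKM in late 1-cell embryos, 268 to 339 FPKM in the 3 early 2-cell libraries and 393 and 427 FPKM in late 2-cell embryos. The mean was highest in L2C for 31 of the 47 genes and in E2C for 11, against 1 in FGO, 4 in MII and 0 in L1C. Some genes, such as Snora52 and Snord42b, reached 1 FPKM in L2C libraries alone, so the filter itself favoured that peak. The same count over all genes was not made, so these counts are a description and no support for the rise. The sums of both families went up, that of C/D genes from 37.9 and 39.0 FPKM in L1C to 127 to 172 FPKM in E2C, and that of H/ACA genes from 58.9 and 61.8 FPKM to 140 to 167 FPKM. Snord21, Snord17 and Snord22 made up most of each of these C/D sums, and Snora47 and Snora74a most of each H/ACA sum. Other classes of small RNA stepped up between the same controls. Mean sums went from 154 to 604 FPKM for snRNA models, from 90.4 to 321 FPKM for other snoRNA models and from 164 to 268 FPKM for small Cajal body RNAs. They went from 2079 to 4300 FPKM for mitochondrial tRNAs, from 2120 to 5305 FPKM for miRNA models (1 model, Gm23935, left out) and from 3677 to 9347 FPKM for miscellaneous RNA models. In each class all 3 E2C controls were above both L1C controls, and the part of this shared step in the snoRNA rises was not tested. In 9 genes every one of the 5 control 2-cell libraries was above all 6 earlier control libraries (19.1%, where 14.4% of all tested genes showed this): Snora47, Snora74a, Snord21, Snord17, Snord22, Snora73a, Snora73b, Snora34 and Snora33.

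Differences between groups were tested with limma on log2(FPKM + 1), with Benjamini-Hochberg adjustment over all 15184 genes, and a gene is said to have risen or fallen where the adjusted p is under 0.05. From FGO to MII 0 of the 47 genes were called by limma, with 1 at an unadjusted p under 0.05 (Snord66, higher), while 1.3% of all genes rose and 4.1% fell. From MII to L1C 2 rose (9.54% of all genes) and 1 fell (15.8%). From L1C to E2C 12 of 47 rose, or 25.5%, and 0 fell, where 18.1% of all genes rose and 29.1% fell. These were 5 of the 23 C/D genes and 7 of the 24 H/ACA genes. The median log2 difference was 0.67 over the 47 genes and -0.08 over all genes. From E2C to L2C 10 rose (21.3%) and 1 fell, where 29.2% of all genes rose and 22.5% fell, and the medians were 0.42 and 0.02. The steps on either side of E2C share its control libraries. Leaving out single control libraries moved the rises from L1C to E2C to between 4 and 9, so the count rests on few libraries.

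**Figure D2:**
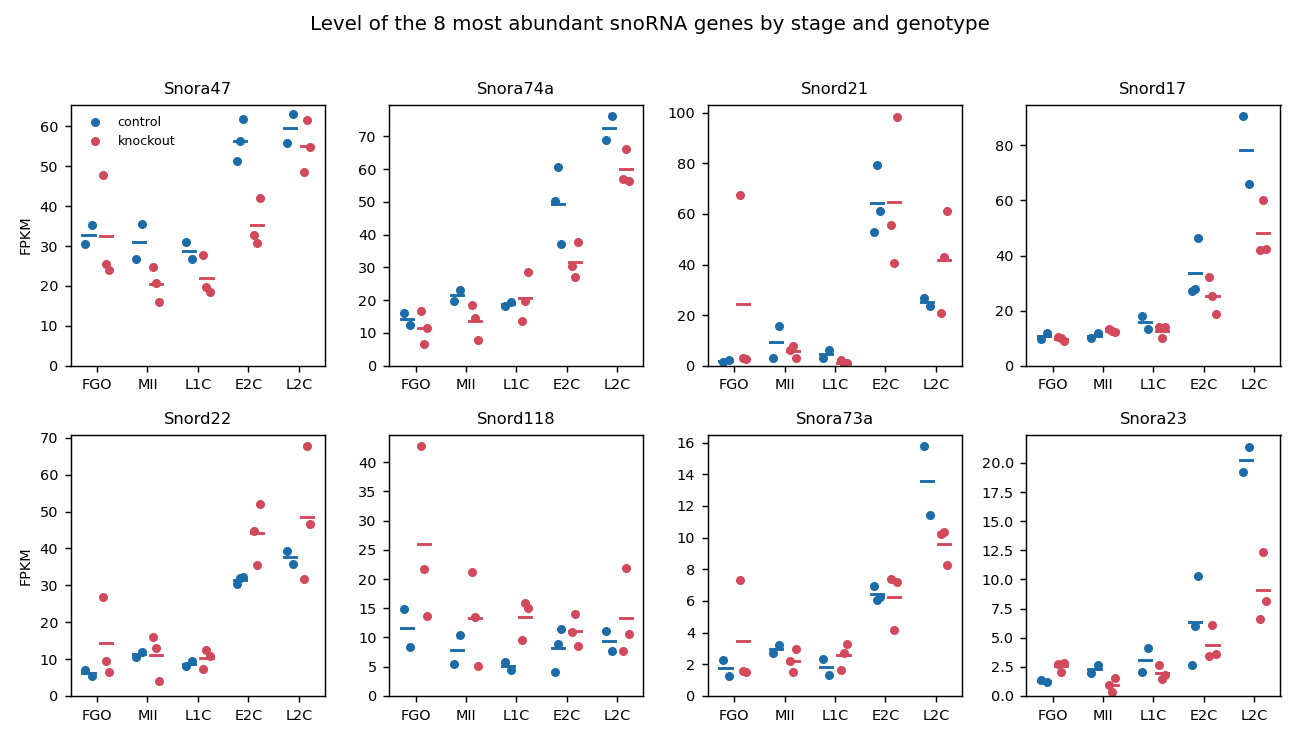
FPKM (y axis, from 0, a scale per panel) of the 8 snoRNA genes with the highest mean, by stage, with 1 point per library and bars at group means, in control (blue) and knockout (red). Snord21 is at 1.39 to 15.6 FPKM in the earlier control libraries and at 23.7 to 79.4 FPKM in the 2-cell ones, and Snord118 shows no such step.

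Among the box C/D genes Snord21, a modification guide housed in Rpl5, changed most at the start of the 2-cell stage. Its control values were 1.39 and 2.15 FPKM in FGO, 2.93 and 15.6 in MII, 3.15 and 6.17 in L1C, 52.8, 79.4 and 61.1 in E2C, and 26.9 and 23.7 in L2C. All 5 2-cell libraries were above the 6 earlier ones, and the L2C pair lay below the 3 E2C libraries. It rose from L1C to E2C by 3.56 ± 1.30 (log2 difference ± SE, adjusted p = 0.0307), an 11.8-fold difference on the log2(FPKM + 1) scale, and the E2C to L2C difference did not pass (-1.30 ± 1.58, adjusted p = 0.527). The adjusted p of the rise ran from 3.83e-05 to 0.106 over the alternatives. Its host moved the other way: Rpl5 fell at this step from 50.5 and 46.8 FPKM to 19.6, 14.2 and 15.1 FPKM (-1.53, adjusted p = 2.34e-07).

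Snord17 rose at 3 steps in a row. Its control values were 9.54 and 11.9 FPKM in FGO, 10.1 and 11.7 in MII, 18.1 and 13.5 in L1C, 27.0, 27.9 and 46.4 in E2C, and 90.7 and 65.8 in L2C, with no overlap between neighbouring stages from MII on. The log2 differences were 0.48 ± 0.17 from MII to L1C (adjusted p = 0.0402), 1.02 ± 0.24 from L1C to E2C (adjusted p = 0.00116) and 1.22 ± 0.29 from E2C to L2C (adjusted p = 0.00116). The last 2 held under all 14 alternatives run, the first under 6 of 13. Its host Snx5, which encodes a sorting nexin, rose by 0.78 from L1C to E2C (adjusted p = 0.000367) and by 1.86 from E2C to L2C (adjusted p = 6.46e-08), whereas its difference from MII to L1C was 0.13 (adjusted p = 0.448). Snord17 averaged 25.3 FPKM and Snx5 6.38 FPKM over the 26 libraries.

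Snord22, which acts in ribosomal RNA processing, had control values of 6.90 and 5.38 FPKM in FGO, 10.5 and 12 in MII, 8.0 and 9.51 in L1C, 30.4, 31.9 and 32.4 in E2C, and 39.4 and 35.7 in L2C. It rose from L1C to E2C by 1.74 ± 0.67 (adjusted p = 0.0381), and its E2C libraries were close to each other and far from the earlier ones. The rise was called under 7 of 14 alternatives. Its host Snhg1 rose at the same step by 0.68 (adjusted p = 0.0452). Snord118, the U8 snoRNA, did not follow this course. Its control values were 14.8 and 8.42 FPKM in FGO, 5.42 and 10.4 in MII, 5.76 and 4.38 in L1C, 4.01, 8.95 and 11.4 in E2C, and 11.2 and 7.73 in L2C. The 2-cell and earlier libraries overlapped, and its L1C to E2C difference was 0.50 ± 0.70 (adjusted p = 0.594). Of the 8 most abundant genes it is the one without a host on its strand.

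Among the H/ACA genes Snora47, Snora74a and the U17 pair rose from L1C to E2C. Snora47 was at 30.9 and 26.8 FPKM in L1C controls and at 51.3, 56.2 and 61.8 FPKM in E2C controls, a rise of 0.94 ± 0.32 (adjusted p = 0.0204). Its 6 earlier control libraries lay between 26.7 and 35.4 FPKM, and the L2C values of 55.8 and 63.1 FPKM overlapped those of E2C. Its host Zbed3 averaged 3684 FPKM over the 26 libraries and rose by 0.65 at the same step (adjusted p = 8.11e-06), but fell by 2.08 from E2C to L2C (adjusted p = 8.01e-12), where the difference of Snora47 was 0.08 ± 0.39 (adjusted p = 0.894). Snora74a went from 18.1 and 19.3 FPKM to 50.3, 60.5 and 37.1 FPKM, by 1.32 ± 0.46 (adjusted p = 0.0232). The gene around it, called Snhg4 in the files and Gm28285 in the annotation, averaged 0.328 FPKM. The L1C to E2C rises of Snora47 and Snora74a were each called under 9 of 14 alternatives.

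Snora73a was at 2.33 and 1.29 FPKM in L1C controls, 6.95, 6.07 and 6.24 FPKM in E2C and 15.8 and 11.4 FPKM in L2C. Snora73b was at 3.55 and 1.13 FPKM, 4.58, 8.27 and 10.1 FPKM, and 9.98 and 7.59 FPKM in the same groups. Both rose from L1C to E2C, by 1.42 ± 0.51 (adjusted p = 0.0277) and 1.42 ± 0.55 (adjusted p = 0.0380). The rise was called under 9 of 14 alternatives for Snora73a and 7 of 13 for Snora73b. Rcc1, taken as their host and a regulator of the Ran GTPase, did not pass at that step (-0.35, adjusted p = 0.0554). Snhg3 also spans both genes, and its values were not set beside theirs. Since the 2 copies are nearly identical, their sum is also given: it was 4.16 ± 2.45 FPKM (SD, n = 2) in L1C controls, 14.1 ± 2.42 FPKM (n = 3) in E2C and 22.4 ± 4.77 FPKM (n = 2) in L2C.

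The other 5 genes that rose from L1C to E2C had means under 5 FPKM in both groups and were named after their values were seen. Snora34, Snora21, Snord49b and Snord55 were listed at 0 in both L1C controls, so no fold is given. Snora34 reached 2.89, 2.5 and 3.35 FPKM in E2C (adjusted p = 7.49e-07). Snora21 reached 5.27, 0.367 and 9.08 FPKM (adjusted p = 0.00696), Snord49b 2.94, 2.51 and 3.69 FPKM (adjusted p = 0.0240) and Snord55 3.22, 2.44 and 0 FPKM (adjusted p = 0.00828). Snora64 went from 0.283 and 0.170 FPKM to 3.34, 0.276 and 2.56 FPKM (adjusted p = 0.0115). Snord55 and Snora64 overlapped between the stages, and Snora21 had a single low E2C library close to 0. Of 13 alternatives, 13 kept the call for Snora34, 11 for Snora21 and for Snord55, 10 for Snora64 and 7 for Snord49b.

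At the step into the late 2-cell embryo the largest rises among genes above 5 FPKM were those of Snora78, Snord15a and Snora23. Snora78 was at 0.456, 0.625 and 1.97 FPKM in E2C controls and at 7.80 and 12 FPKM in L2C controls, a rise of 2.48 ± 0.47 (5.59-fold, adjusted p = 0.000132) that held under all 13 alternatives. Its host Snhg9 rose by 1.70 (adjusted p = 2.46e-05). Snord15a, in an intron of Rps3, went from 0.797, 0.724 and 3.84 FPKM to 13.5 and 6.57 FPKM (2.09 ± 0.76, adjusted p = 0.0263), and Rps3 rose by 1.99 (adjusted p = 9.79e-06). Snora23 went from 2.69, 6.02 and 10.3 FPKM to 19.2 and 21.4 FPKM (1.68 ± 0.48, adjusted p = 0.00607), and its host Ipo7, which encodes an importin, rose by 3.64 (adjusted p = 5.05e-13). In these 3 pairs snoRNA and host rose at the same step. The rises of Snord15a and Snora23 were called under 7 and 11 of 13 alternatives. Of the 10 snoRNA genes that rose from E2C to L2C, 9 had a host that rose too and 1 a host that was not tested, while 29.2% of all genes rose.

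Snord35a, Snord66, Snora52, Snord42b, Snord53 and Snora33 also rose from E2C to L2C, from near 0 to L2C means of 1.55 to 3.44 FPKM, with adjusted p from 3.60e-05 (Snord35a) to 0.0236 (Snord66). They were named after their values were seen. Snord35a, Snora52, Snord42b and Snord53 were called under all 13 alternatives, Snora33 under 8 of 13 and Snord66 under 6 of 13. Snora52 and Snord53 reached 1 FPKM in 2 libraries each and Snord35a and Snord42b in 3 each, all of them L2C. Snora33 reached it in 3, of which 2 were the L2C controls. The rises of these 5 genes are therefore not independent of the filter. Snord53 was listed at 0 in every control library before L2C, where it was at 2.78 and 0.625 FPKM. The gene that fell was Snora34, from 2.89, 2.5 and 3.35 FPKM to 2.08 and 0.453 FPKM (-0.88 ± 0.29, adjusted p = 0.0143). Over the alternatives that difference lay between -1.45 and -0.34, and 10 of 13 kept it past the threshold. From MII to L1C Snora31 rose from 0 and 0.354 FPKM to 1.08 and 1.12 FPKM (adjusted p = 0.0385) and Snord15a fell from 3.91 and 2.19 FPKM to 1.14 and 0 FPKM (adjusted p = 0.0229). Snora31 was called under 5 of 12 alternatives and Snord15a under 7 of 12.

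**Figure D3:**
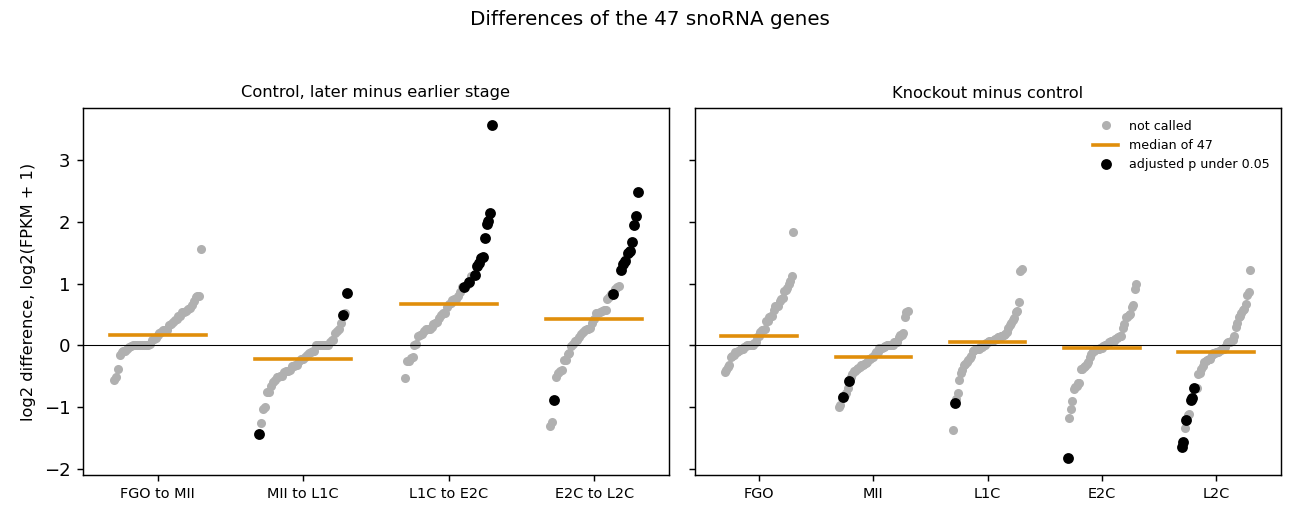
Log2 difference of log2(FPKM + 1) (y axis) of each of the 47 snoRNA genes, ordered by size within each column, for the control stage steps (left) and for knockout minus control at each stage (right). Black points have an adjusted p under 0.05 and orange lines are medians of the 47 genes. The median is highest from L1C to E2C (0.67), and called knockout differences lie below 0 at 4 stages.

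Few snoRNA genes were called between knockout and control, and those that passed were lower in the knockout. By limma 0 of 47 were called in FGO, 2 fell in MII, 1 in L1C, 1 in E2C and 6 in L2C, and 0 rose at any stage. The shares of all genes that fell were 9.93%, 10.2%, 10.0%, 7.24% and 17.2%, and of those that rose 3.89%, 6.57%, 7.56%, 6.2% and 17.1%, in the same order. The share of the 47 genes that fell was thus 0%, 4.26%, 2.13%, 2.13% and 12.8%, below that of all genes at each stage. Of the 47 genes 26 averaged under 1 FPKM, and the part of their low level in these smaller shares was not tested. At an unadjusted p under 0.05, 6 were higher in FGO, 6 lower in MII, 2 higher and 4 lower in L1C, 2 lower in E2C, and 1 higher and 8 lower in L2C. The medians over the 47 genes were 0.15, -0.19, 0.06, -0.04 and -0.11. Of the 47 genes, 10 were lower without overlap of the groups in MII, where 21.9% of all genes were, and 10 in L2C, where 27.7% were. Neither share was above that of all genes. Higher without overlap were 2 genes in MII and 1 in L2C. In FGO 5 were higher and 2 lower, in L1C 5 and 4, and in E2C 2 and 4. The shares over all genes are not given for these, so nothing is read from them.

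Of the 8 cumulus and granulosa markers 1 was tested, Cyp19a1, and its level moved with genotype. Cyp19a1 was lower in the knockout in FGO, MII, L1C and E2C (log2 differences from -1.33 to -1.05), and the 8 cumulus and granulosa markers summed to 6.76 and 7.82 FPKM in control FGO against 2.25 to 2.62 FPKM in knockout FGO. In the later controls their sum was 4.76 and 5.97 FPKM in MII, 4.81 and 6.50 FPKM in L1C, 4.26 to 6.06 FPKM in E2C and 1.78 and 2.53 FPKM in L2C. In the later knockouts it was 0.550 to 2.19 FPKM. Of the 8, 2 reached 1 FPKM in any library and 0 were at 0 in every library. Whether these values come from such cells or from the oocyte itself was not tested, nor was their part in the snoRNA differences.

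In FGO no snoRNA gene passed by limma, and the highest values came mainly from 1 library. Snord21 was at 1.39 and 2.15 FPKM in controls and 67.4, 2.96 and 2.47 FPKM in knockouts. The groups did not overlap, but 1 knockout library was far above the others. The difference was 1.84 ± 0.89 (adjusted p = 0.195), and 0.43 ± 0.46 without that library (adjusted p = 0.648). Snord118 was at 14.8 and 8.42 FPKM against 42.8, 21.7 and 13.7 FPKM, and Snord22 at 6.90 and 5.38 FPKM against 26.9, 9.49 and 6.49 FPKM. Their differences of 1.00 and 0.87 became 0.58 and 0.32 without knockout replicate 1. The 6 genes at an unadjusted p under 0.05 were Snord49b, Snord58b, Snora41, Snord104, Snord87 and Snora23. Without that library all 6 stayed higher, without passing. Snora23 was at 1.39 and 1.16 FPKM in controls against 2.05 and 2.85 FPKM in the remaining knockouts (0.59 ± 0.26, adjusted p = 0.155). The differences of the others were 0.65 ± 0.41 for Snord49b, 0.51 ± 0.32 for Snora41, 0.36 ± 0.27 for Snord58b, 0.26 ± 0.20 for Snord104 and 0.22 ± 0.18 for Snord87 (adjusted p from 0.353 to 0.496).

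In MII eggs the genes that fell in the knockout were Snora23 and Snora47, both H/ACA. Snora23 was at 1.95 and 2.66 FPKM in controls and at 0.891, 0.319 and 1.55 FPKM in knockouts, lower by -0.83 ± 0.24 (adjusted p = 0.0223). Snora47 was at 26.7 and 35.4 FPKM in controls and 24.7, 20.8 and 16.0 FPKM in knockouts, by -0.58 ± 0.20 (adjusted p = 0.0479). All 3 knockout libraries were below both controls for each. Snora74a was also below in all 3 (18.7, 14.6 and 7.85 FPKM against 19.8 and 23.1 FPKM) without passing (-0.68 ± 0.28, adjusted p = 0.114). Summed, the H/ACA genes were at 62.0 and 78.0 FPKM in control eggs and at 34.0 to 57.0 FPKM in knockout eggs, while the C/D sums overlapped (38.2 and 65.7 FPKM against 27.4 to 63.7 FPKM). Snora47 and Snora74a made up most of each H/ACA sum. Other classes were lower without overlap too. Other snoRNA models summed to 133 and 177 FPKM in controls against 62.1 to 110 FPKM, and small Cajal body RNAs to 152 and 160 FPKM against 93.0 to 133 FPKM. All genes summed to 312125 and 316060 FPKM in controls against 306912 to 307764 FPKM. Snora23 was called under 7 of 13 alternatives and Snora47 under 3 of 14. Ipo7, the host of Snora23, was lower by -0.25 (adjusted p = 0.0464) and Zbed3, the host of Snora47, by -0.17 (adjusted p = 0.0503). Leaving out single libraries of this stage left between 0 and 4 genes called lower.

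In late 1-cell embryos Snord104, which has no host on its strand, was at 0.679 and 1.17 FPKM in controls and listed at 0 in all 3 knockout libraries (adjusted p = 0.0428). Its values were 3.11, 3.2 and 3.27 FPKM in the L2C knockouts against 1.46 and 1.15 FPKM in the controls, so the order was the opposite there, without passing. It was called in L1C under 4 of 12 alternatives and lies close to the filter on low values. It was named after its values were seen. Snord118 was higher in all 3 knockout libraries (9.61, 15.8 and 15.0 FPKM) than in both controls (5.76 and 4.38 FPKM) without passing (1.23 ± 0.49, adjusted p = 0.0917).

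In early 2-cell embryos Snora34, an H/ACA guide in an intron of Kansl2, fell. It was at 2.89, 2.5 and 3.35 FPKM in controls and at 0.216, 0.0996 and 0 FPKM in knockouts, so that the rise from L1C seen in the control was not seen in the knockout, whose L1C libraries were at 0.155, 0 and 0 FPKM. The difference was -1.82 ± 0.28 (adjusted p = 0.000225) and passed under all 14 alternatives, with adjusted p from 2.54e-06 to 0.0228. In late 2-cell embryos Snora34 was at 2.08 and 0.453 FPKM in controls and 1.82, 1.43 and 3.14 FPKM in knockouts, which overlapped (0.53 ± 0.27, adjusted p = 0.143). The knockout effect itself changed from L1C to E2C by -1.89 ± 0.33 (adjusted p = 0.00280) and from E2C to L2C by 2.35 ± 0.39 (adjusted p = 0.000239). Such changes were called for 3.32% and 18.8% of all genes, and for 1 and 2 of the 47. From FGO to MII and from MII to L1C they were called by limma for 0 of the 47 genes (6 and 5 at an unadjusted p under 0.05), beside 0.0% and 0.204% of all genes.

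Kansl2, the host of Snora34, encodes a subunit of the NSL histone acetyltransferase complex. It was at 5.58, 3.75 and 4.85 FPKM in E2C controls and 5.81, 3.43 and 3.06 FPKM in E2C knockouts (-0.19, adjusted p = 0.752), and in controls its L1C to E2C difference was 0.39 (adjusted p = 0.197). It rose by 1.54 from E2C to L2C in controls (adjusted p = 0.000133), the step at which Snora34 fell. In L2C it was at 14.5 and 16.7 FPKM in controls and 10.2, 9.93 and 7.96 FPKM in knockouts without passing (-0.68, adjusted p = 0.0583). Snora2b, which overlaps a Kansl2 exon, was at 0.156, 0 and 1.55 FPKM in E2C controls and 1.38, 0 and 0.221 FPKM in knockouts. Of the more abundant genes Snora47 was lower in all 3 E2C knockouts (32.9, 30.7 and 42.1 FPKM) than in all 3 controls (51.3, 56.2 and 61.8 FPKM) without passing (-0.67 ± 0.38, adjusted p = 0.288). The H/ACA sum was 140 to 167 FPKM in controls and 90.8 to 114 FPKM in knockouts, and the C/D sums overlapped. Snora47 and Snora74a made up most of each H/ACA sum. Other sums were lower without overlap too. Other snoRNA models were at 293 to 350 FPKM in controls against 171 to 260 FPKM, and small Cajal body RNAs at 245 to 306 FPKM against 164 to 241 FPKM. All genes summed to 357363 to 387957 FPKM against 325937 to 350300 FPKM. Early 2-cell libraries varied most, with a fitted library weight of 0.422 against 1.98 in MII. The summed level of 6 2-cell embryo markers was 173 to 232 FPKM in these controls and 83.3 to 155 FPKM in these knockouts, and their part in the result was not tested.

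**Figure D4:**
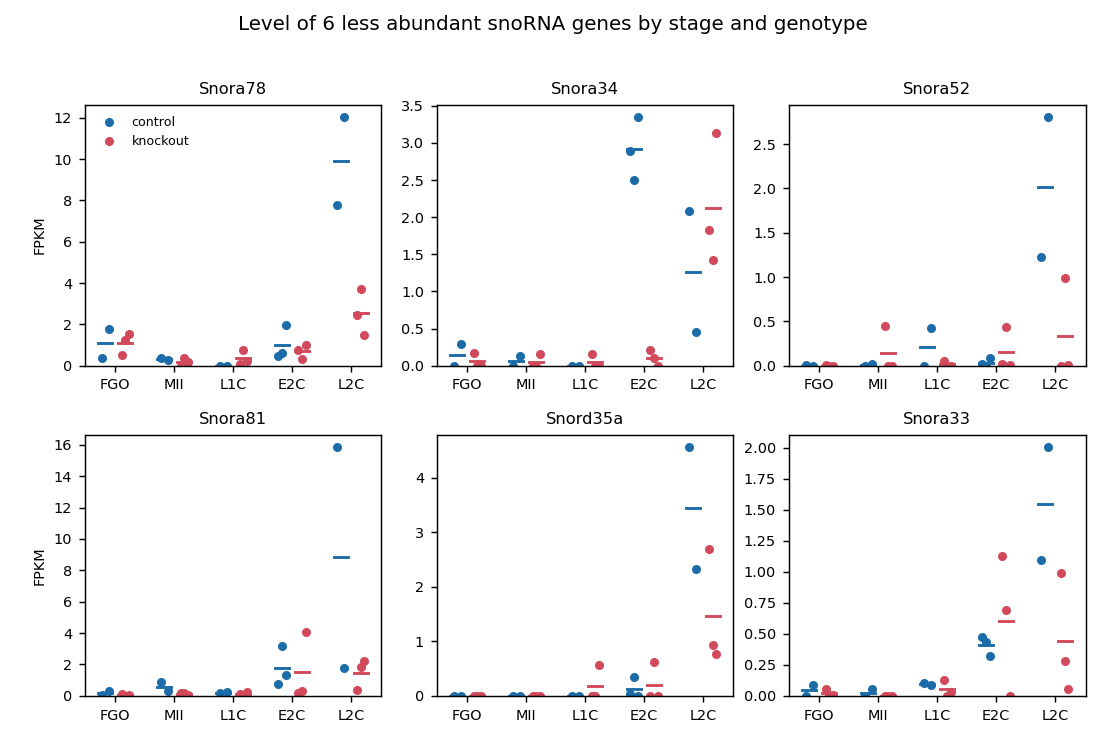
FPKM (y axis, from 0, a scale per panel) of 6 less abundant snoRNA genes by stage, with 1 point per library and bars at group means, in control (blue) and knockout (red). Snora34 is at 2.5 FPKM or more in the E2C controls and at 0.216 FPKM or less in the E2C knockouts, and Snora78 is at 7.80 and 12 FPKM in the L2C controls.

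In late 2-cell embryos 6 snoRNA genes fell in the knockout. Snora78 was at 7.80 and 12 FPKM in controls and 2.48, 3.73 and 1.48 FPKM in knockouts, lower by -1.64 ± 0.44 (0.321 of the control on the log2(FPKM + 1) scale, adjusted p = 0.00589). Snord17 was at 90.7 and 65.8 FPKM in controls and 41.9, 60.02 and 42.4 FPKM in knockouts (-0.69 ± 0.27, adjusted p = 0.0495). Snora52 was at 1.22 and 2.81 FPKM against 0, 0.992 and 0.00694 FPKM (-1.21 ± 0.31, adjusted p = 0.00428). All 3 knockout libraries were below both controls for each of these. Snord17 was called under 6 of 14 alternatives (adjusted p from 0.0207 to 0.368), Snora78 under 9 of 13 and Snora52 under 11 of 13. Snora52 also changed its knockout effect from E2C to L2C, by -1.35 ± 0.45 (adjusted p = 0.0398). Snora52 reached 1 FPKM in 2 libraries, both L2C controls. It thus met the filter only through the group where it was high, so neither of its results is independent of the filter.

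The other 3 genes that fell were lower in level or rested on a single control library, and were named after their values were seen. Snora33, in an exon of Rps12, was at 1.09 and 2.00 FPKM in controls and 0.990, 0.284 and 0.0574 FPKM in knockouts (adjusted p = 0.00812). Snord35a was at 4.56 and 2.32 FPKM against 2.7, 0.929 and 0.770 FPKM, which overlapped (adjusted p = 0.0285). Snora81, in an exon of Eif4a2, was at 15.9 and 1.79 FPKM against 0.370, 1.83 and 2.22 FPKM (-1.56 ± 0.57, adjusted p = 0.0397). These 3 were called under 7, 6 and 5 of 13 alternatives. Snora33 and Snord35a each reached 1 FPKM in 3 libraries, 2 of them the L2C controls, and so met the filter only with that group. Without L2C control replicate 1 the difference of Snora81 was -0.27 (adjusted p = 0.801). Snora23 was at 19.2 and 21.4 FPKM in controls and 6.64, 12.4 and 8.14 FPKM in knockouts without passing (-1.12 ± 0.45, adjusted p = 0.0603). Leaving out single libraries left between 3 and 5 genes called lower. With TPM scaling the median of all genes lay at 0.16 and 2 of the 47 genes were called lower.

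Several hosts fell at this stage too. Of the 6 snoRNA genes that fell, 3 had a host that fell, 2 a host that was not called and 1 a host that was not tested. Snhg9 was at 1.91 and 3.69 FPKM in controls and 0.510, 0.346 and 0.770 FPKM in knockouts (-1.27, adjusted p = 0.000649), beside Snora78. Snx5 was at 20.5 and 28.3 FPKM against 16.7, 14.4 and 13.6 FPKM (-0.66, adjusted p = 0.00662), beside Snord17. Ipo7 was at 66.4 and 53.9 FPKM against 17.5, 15.2 and 14.8 FPKM (-1.86, adjusted p = 1.85e-08), beside Snora23. Rplp2 fell by 0.68 (adjusted p = 0.0161), beside Snora52. The hosts not called were Rps12 (-0.40, adjusted p = 0.0631), beside Snora33, and Eif4a2 (0.06, adjusted p = 0.778), beside Snora81. Hosts of genes that were not called fell as well: Rpl5 by 0.52 (adjusted p = 0.0430), where Snord21 was at 26.9 and 23.7 FPKM against 21, 43.2 and 61.0 FPKM, Rps3 by 1.31 (adjusted p = 0.000979), and Rcc1 by 0.93 (adjusted p = 0.000211). Snhg1, the host of Snord22, did not pass (0.23, adjusted p = 0.628), and Snord22 was at 39.4 and 35.7 FPKM against 31.6, 67.7 and 46.6 FPKM.

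The H/ACA genes summed to 222 and 230 FPKM in control and 154 to 206 FPKM in knockout late 2-cell embryos, and the C/D genes to 163 and 205 FPKM against 126 to 220 FPKM. The 104 other snoRNA models past the filter summed to 559 and 562 FPKM in controls and 397 to 476 FPKM in knockouts, without overlap. Small Cajal body RNAs were at 484 and 494 FPKM against 365 to 398 FPKM. All genes summed to 404518 and 430784 FPKM against 371188 to 381737 FPKM, also without overlap. The part of this wider difference in the snoRNA falls was not tested. snRNA models overlapped (557 and 631 FPKM against 541 to 904 FPKM). Markers of the stage moved with genotype here. The 8 oocyte markers summed to 499 and 523 FPKM in controls and 799 to 925 FPKM in knockouts, with 6 of 8 called higher, and the 6 2-cell embryo markers to 84.8 and 98.0 FPKM against 200.2 to 260.2 FPKM, with 5 called higher and 1 lower. Their part in the snoRNA differences was not tested.

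Of the 8 genes that encode the core proteins of snoRNA particles, 7 fell in knockout late 2-cell embryos. Of the 4 for box C/D particles, all 4 fell: Snu13 from 48.2 and 42.6 FPKM in controls to 21.2, 17.3 and 17.6 FPKM in knockouts (-1.24 ± 0.21, adjusted p = 0.000106), Nop56 (-0.97 ± 0.15, adjusted p = 3.75e-05), Nop58 (-0.90 ± 0.23, adjusted p = 0.00420) and the methyltransferase Fbl (-0.82 ± 0.22, adjusted p = 0.00640). Of the 4 for H/ACA particles 3 fell: Nhp2 (-0.73 ± 0.19, adjusted p = 0.00452), Gar1 (-0.67 ± 0.24, adjusted p = 0.0370) and the pseudouridine synthase Dkc1 (-0.62 ± 0.19, adjusted p = 0.0130), and Nop10 was at 7.04 and 10.4 FPKM against 6.96, 5.17 and 5.92 FPKM (adjusted p = 0.151). The list medians were -0.93 and -0.64, beside 0.03 over all genes.

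**Figure D5:**
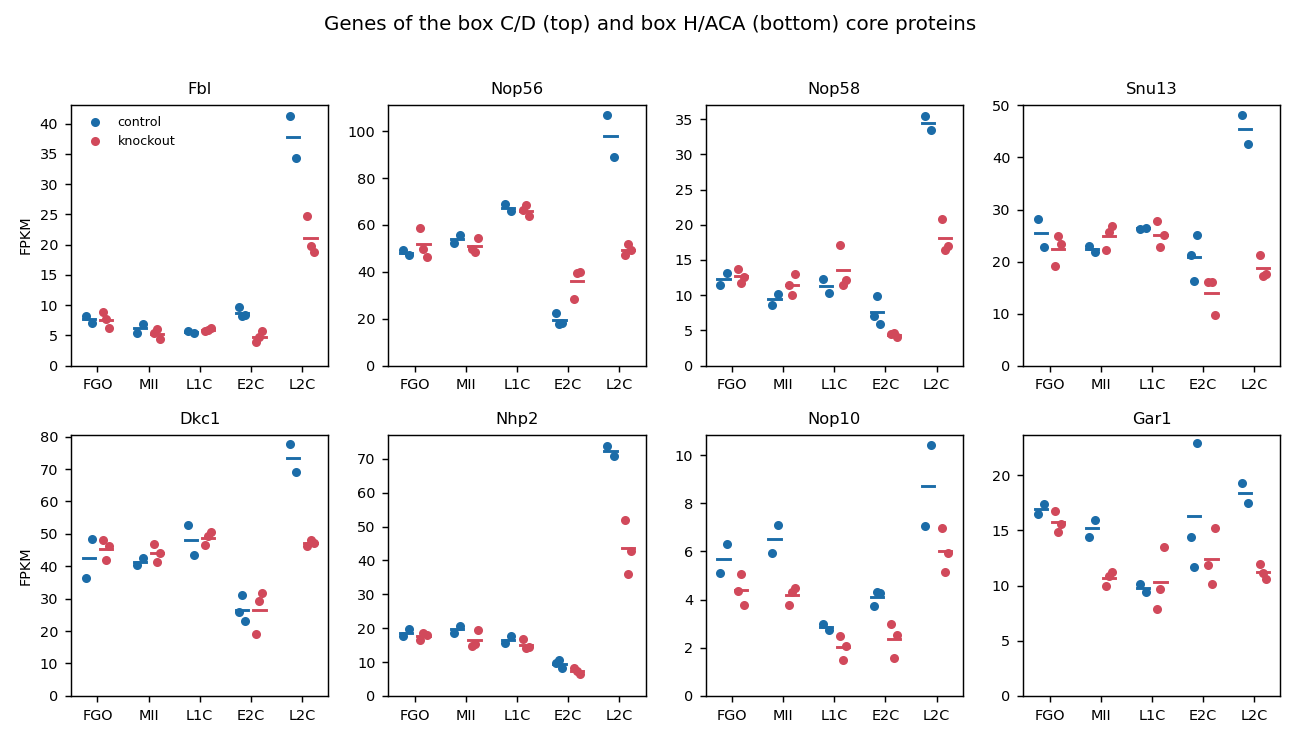
FPKM (y axis, from 0, a scale per panel) of the genes of the 4 box C/D core proteins (top) and the 4 H/ACA core proteins (bottom) by stage, with 1 point per library and bars at group means, in control (blue) and knockout (red). Snu13 is at 48.2 and 42.6 FPKM in the L2C controls and at 17.3 to 21.2 FPKM in the L2C knockouts.

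Earlier stages showed less. In MII eggs 2 of the 4 H/ACA core genes fell, Nop10 (-0.53 ± 0.13, adjusted p = 0.00613) and Gar1 (-0.47 ± 0.13, adjusted p = 0.0155), and 0 of the 4 C/D core genes were called. In early 2-cell embryos Nop56 rose (0.84 ± 0.16, adjusted p = 0.00107) and Fbl fell (-0.76 ± 0.23, adjusted p = 0.0336). In FGO and L1C 0 of these 8 genes were called by limma. The knockout effect on Nop56 therefore turned between the 2-cell stages, by -1.81 ± 0.22 (adjusted p = 6.49e-06).

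In late 2-cell knockouts 1 of 11 snoRNP assembly factors rose and 4 fell, 1 of 11 debranching, trimming and turnover genes rose and 4 fell, and 4 of 17 gene models of non-coding snoRNA hosts fell. Of 11 RNA polymerase I genes and factors 6 fell, and of 18 genes of the small subunit processome and nucleolus 10 fell and 1 rose. For comparison, 17.2% of all genes fell and 17.1% rose. Among 19 models of other small non-coding RNAs past the filter, such as small Cajal body RNAs and the RNA parts of RNase P and telomerase, 2 fell and 0 rose. In FGO these 8 lists, core proteins included, counted 0 to 1 rises and 0 to 3 falls each. These lists were compiled with earlier results of these data known.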

How the data were processed

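Total RNA libraries of 5 stages and 2 genotypes (26 libraries, SMART-Seq Stranded kit per the labels' protocols) were used; the 11 poly(A) libraries were not used here. The values deposited by the authors are FPKM, although the column headers say rpkm, 1 column per library, and 0 columns were left without a sample. Per the submitters' processing notes, Trim Galore 0.6.6, STAR 2.7.9 and StringTie 2.1.7 and the build mm10 were used. The annotation, the handling of strand and of multiply mapped reads and the filters are not given in the sources used here. Fragments of short RNAs can be lost in library making, and FPKM divides by length, so a few fragments give a high value in a short gene. Columns were matched to samples by library name, and groups were taken from the sample titles.

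Gene positions, types, hosts and sequences came from GENCODE M21 (GRCm38). Of 55401 listed identifiers, 55141 are in that release and 54349 with the same version. A host is a gene on the same strand, itself not a small RNA, that spans the snoRNA. Of several such genes the longest protein-coding one was taken, or else the longest. By this rule Snhg3, which also spans Snora73a and Snora73b, was not taken as their host. For Snord35a the host taken was Gm45713, although Rpl13a spans it too. Identity was computed with Biopython 1.88.

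Genes that reached 1 FPKM in 2 or more libraries were fitted together on log2(FPKM + 1) with limma 3.58.1 in R 4.3.3, with a weight for each stage, trended and robust eBayes and Benjamini-Hochberg adjustment per contrast, at a threshold of 0.05. On this scale a difference understates changes of low genes. Knockout effects, control stage steps and changes of the knockout effect from stage to stage were contrasts of 1 model. The fit was also run on simulated data with normal noise. Only genes above the low levels of most snoRNA genes were changed there, so that run does not cover the low genes. Python 3.11.15, pandas 2.3.3, numpy 2.4.6 and matplotlib 3.10.9 made tables and plots.

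The members and the gene lists were chosen with earlier results of these data known. Named by rule were the 8 snoRNA genes with the highest mean, up to 5 that rose and 5 that fell most per contrast among those called without overlap of the groups and averaging 5 FPKM or more in the higher one, up to 3 called per change of the knockout effect, their hosts, up to 3 called genes per list and contrast, and Bap1. Of the list genes so chosen, the core proteins are named and the others counted. Other genes were named after their values were seen. Alternatives were a pseudocount of 0.1, no filter, a floor of 5 FPKM on the mean, TPM scaling, median centring, equal weights, a length-based trend, the replicate number as a block, stages alone and each replicate left out.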

Additional observations from a re-analysis of the deposited data

Results flagged for a closer look

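Tests of the change of the knockout effect between consecutive stages passed for 2 snoRNA genes. For Snora34 the effect changed by -1.89 ± 0.33 from L1C to E2C (adjusted p = 0.00280) and by 2.35 ± 0.39 from E2C to L2C (adjusted p = 0.000239), with all 3 E2C knockouts below all 3 E2C controls and overlapping groups in L2C. For Snora52 it changed by -1.35 ± 0.45 from E2C to L2C (adjusted p = 0.0398), with all 3 L2C knockouts below both controls. The Snora34 change into L2C was called under all 19 alternatives and the change into E2C under 18 of 19, whereas the Snora52 change was called under 5 of 19. Snora52 met the filter only through the 2 L2C controls, so its change is not independent of the filter.

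The same test passed for 6 of the host and core protein genes named above. From E2C to L2C the knockout effect changed by -1.47 for Ipo7 (adjusted p = 9.56e-05), -1.81 for Nop56 (adjusted p = 6.49e-06), -1.17 for Rcc1 (adjusted p = 0.00166), -1.11 for Snhg9 (adjusted p = 0.0430) and 0.50 for Zbed3 (adjusted p = 0.0276). From L1C to E2C it changed by 0.87 for Nop56 (adjusted p = 0.0102) and by -1.12 for Rplp2 (adjusted p = 0.0193). Kansl2, the host of Snora34, is not among them.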

How the results depend on the processing

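Each count of called snoRNA genes was recomputed, and 236 of 328 counts stayed within 1.5 times the reported one. Many reported counts were 0, and a 0 that stayed 0 is among the 236. This share therefore says little about the counts above 0. In 39 pairs of a called gene and a contrast, 369 of 532 recomputed tests kept the call and 163 lost it, and in 0 did a called difference change sign. These values have few genes and no read depth, so depth limits cannot be given.

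With a pseudocount of 0.1 the knockout counts were 1 higher in FGO, 2 higher in L1C and 2 lower in L2C, the control steps gave 1 higher and 5 lower from MII to L1C and 0 lower from E2C to L2C, and 0 (L1C to E2C) and 1 (E2C to L2C) changes of the knockout effect were called. With no filter the knockout counts were 1 lower in MII, 0 lower in L1C and 0 lower in L2C, the steps 0 higher and 0 lower from MII to L1C and 5 higher from L1C to E2C, and 1 change of effect from E2C to L2C. With a mean of at least 5 FPKM only 7 of the 47 genes were tested, and 0 lower in MII, L1C and E2C, 1 lower in L2C, 1 higher and 0 lower from MII to L1C, 6 higher from L1C to E2C, 1 higher and 0 lower from E2C to L2C and 0 changes of effect at either 2-cell step were called.

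TPM scaling gave 1 higher in L1C and 2 lower in L2C in the knockout, 1 higher and 4 lower from MII to L1C, 0 lower from E2C to L2C and 1 change of effect from E2C to L2C. Median centring gave 1 lower in MII and 1 higher in L1C in the knockout, and 2 lower from E2C to L2C. Over all genes, centring moved the split of higher and lower calls from 590 and 1508 to 1160 and 1035 in FGO, from 998 and 1546 to 2172 and 1117 in MII, and from 1449 and 2404 to 3419 and 1548 from MII to L1C. TPM scaling moved it from 2591 and 2605 to 3421 and 1902 in L2C and from 941 and 1100 to 1362 and 811 in E2C (1385 and 898 with centring). From L1C to E2C centring moved it from 2744 and 4412 to 3662 and 3622, and from E2C to L2C from 4430 and 3416 to 3556 and 4878.

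Equal weights gave 0 lower in MII, 0 lower in L1C and 3 lower in E2C in the knockout, 0 higher and 0 lower from MII to L1C, and 5 changes of effect from E2C to L2C. The length-based trend gave 1 lower in MII and 1 change of effect from E2C to L2C. Stages alone, with 12 to 44 of the 47 genes tested, gave 0 lower in MII, 1 higher and 0 lower in L1C, 2 lower in E2C and 1 higher in L2C in the knockout, 0 higher from MII to L1C, 3 lower from E2C to L2C and 1 change of effect from E2C to L2C. The cause of these differences was not tested, except that fewer genes were tested in the stricter filters.

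Within a stage, control and knockout libraries with the same number had residuals that correlated between -0.08 and 0.14, so the numbers were not taken to pair samples. With the replicate block within stage the knockout counts were 2 higher in FGO, 1 higher and 1 lower in MII, 1 higher in L1C and 3 lower in L2C, and 1 change of effect was called from E2C to L2C. A number within a stage cannot block a step between stages. A replicate block shared over stages, added after seeing the data, was run for those steps and left each control count within 1.5 times.

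With each replicate left out in turn, the knockout counts ranged from 0 to 2 higher in FGO, 0 to 1 higher and 0 to 4 lower in MII, 0 to 1 higher and 0 to 1 lower in L1C, 1 to 2 lower in E2C, and 0 to 1 higher and 3 to 5 lower in L2C. The control steps ranged from 0 to 1 higher and 0 to 2 lower from MII to L1C, 4 to 9 higher from L1C to E2C, and 8 to 11 higher and 0 to 2 lower from E2C to L2C. Changes of effect ranged from 1 to 2 into E2C and from 1 to 4 into L2C. A group left with 1 library is assumed to vary like the others.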
